A study of Homo sapiens with 12 samples.

Results

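The major histocompatibility complex (MHC) was taken as the stretch of chromosome 6 from 29600001 to 33400000 (build hg19), and all FoxK1 peaks with a summit in it were described. Across 6 peak lists it held 943 of 223205 peaks, and merging peaks that shared at least 1 bp gave 246 of the genome's 68127 regions. The stretch was divided by position into class I (29.6 to 31.4 Mb), class III (31.4 to 32.2 Mb) and class II (32.2 to 33.4 Mb). Members were thus chosen by coordinates alone, with no use of peak strength or treatment. Class III held 300 of the peaks and 70 of the regions, class I held 453 peaks and 128 regions, and class II held 190 peaks and 48 regions. No region had summits in more than 1 class.

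The peaks come from chromatin immunoprecipitation and sequencing of FoxK1 in HepG2, an established human line from a hepatocellular carcinoma. All cultures spent 16 h in serum-free medium. The insulin group (3 libraries) then received 100 nM insulin for 20 min and the untreated group (3 libraries) received none, and both were fixed with formaldehyde. The 6 input libraries were not analysed here, and nothing in the labels says that replicates were separate cultures, so each p reflects the spread among these libraries alone.

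FoxK1 is a forkhead transcription factor, and insulin is known to move it into the nucleus of liver cells. The MHC is among the most gene-rich parts of the human genome. Its class I stretch holds, among other genes, those of the HLA molecules that show peptides from inside the cell on almost every nucleated cell. Its class II stretch holds, among other genes, those of HLA molecules that show peptides taken up from outside and are made mainly by specialised immune cells. Class III lies between them and carries complement genes, cytokine genes of the TNF family, heat shock genes and many genes used in most cells. In the RefSeq gene order of assembly GRCh38.p14, which gives names only, 59 protein-coding genes run from MCCD1 to NOTCH4 in class III, 49 from HLA-F to MICB in class I and 32 from HLA-DRA to DAXX in class II. These gene limits are not the limits used for the peaks. No gene model or sequence of hg19 was used here, so the regions below are given by position and carry no gene name.

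The whole lists held between 26082 and 48208 peaks, and total read numbers are unknown. The median summit of a list rested on 21 to 43 fragments, a number recovered from the fold and −log10 p of each peak. Replicate 3 had the fewest peaks in both treatments.

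FoxK1 peaks were dense in the MHC. There were 49.2, 50.3 and 35.0 peaks per Mb of the MHC in insulin replicates 1, 2 and 3, and 44.2, 36.8 and 32.6 in untreated replicates 1, 2 and 3. The rest of the genome held 15.8, 14.8 and 8.98 peaks per Mb in the insulin libraries and 14.7, 10.4 and 8.54 in the untreated libraries. Every library was denser in the MHC, by 3.02 to 3.90 times (log2 ratio 1.79 ± 0.15, SD, n = 6; two-sided exact sign-flip permutation p = 0.0312, the smallest that 6 libraries allow). Against the rest of chromosome 6 the ratio was 2.84 to 3.53 times (log2 ratio 1.65 ± 0.13, SD, n = 6; two-sided exact sign-flip permutation p = 0.0312). The background that MACS2 estimated at the summits was also higher in the MHC, with a median 1.51 to 1.87 times that of the rest of the genome in the same library, and its part in the density was not tested.

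The classes differed in density in the same order in every library. Class III had 71.3, 81.3 and 51.3 peaks per Mb in insulin replicates 1, 2 and 3, and 65.0, 63.8 and 42.5 in untreated replicates 1, 2 and 3. Class I had 51.1, 50.6 and 36.1 in the insulin libraries and 45.6, 34.4 and 33.9 in the untreated libraries. Class II had 31.7, 29.2 and 22.5 in the insulin libraries and 28.3, 22.5 and 24.2 in the untreated libraries. Class III thus stood highest and class II lowest in all 6 libraries, with all 6 above the rest of the genome in each class.

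Class III was 1.25 to 1.85 times as dense as class I (log2 ratio 0.57 ± 0.19, SD, n = 6). It was 1.76 to 2.83 times as dense as class II (log2 ratio 1.23 ± 0.25, SD, n = 6). Class I was 1.40 to 1.73 times as dense as class II (log2 ratio 0.66 ± 0.10, SD, n = 6). Each of these 3 differences gave a two-sided exact sign-flip permutation p of 0.0312, and 0.0312 after Benjamini-Hochberg adjustment over the 3 pairs. The libraries share one cell line, so the test speaks of the order across libraries and not across genomes. Median background at class III summits was 0.982 to 1.24 times that of class I and 1.06 to 1.45 times that of class II in the same library, and its part in the order of the classes was not tested.

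**Figure D1:**
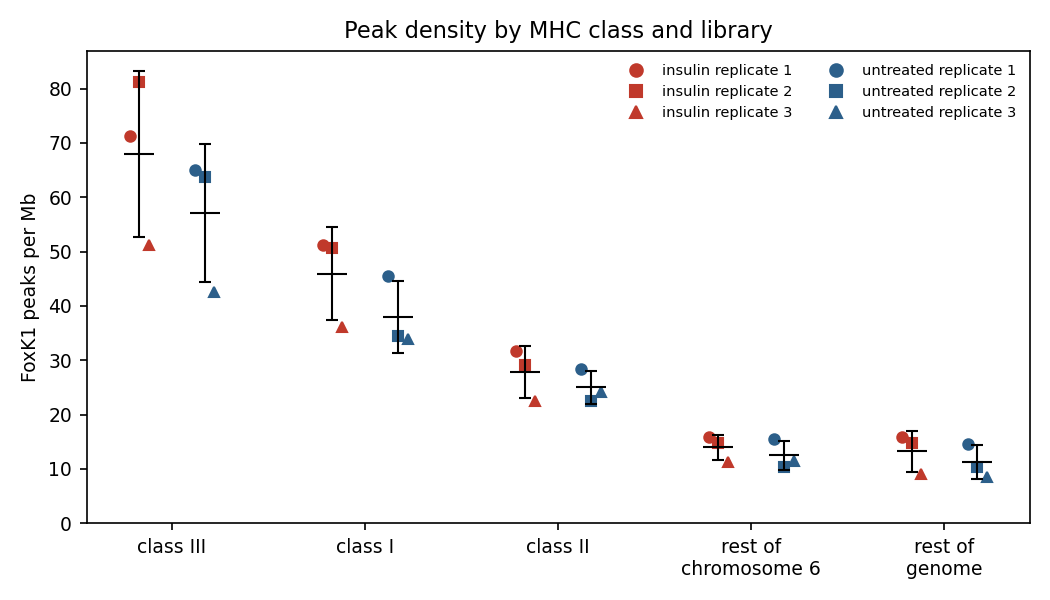
Peaks per Mb (y axis) in each of the 6 libraries for MHC class III, class I and class II, the rest of chromosome 6 and the rest of the genome, with insulin libraries in red left of untreated libraries in blue. Bars are the mean ± SD of 3 libraries; class III reached 81.3 per Mb, class II stayed between 22.5 and 31.7, and the rest of the genome lay at or below 15.8.

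The peaks were not spread evenly within a class. Counting merged regions in windows of 100 kb, the most regions stood in class I at 30700001 to 30800000, with 16 regions of which 6 were called in all 6 libraries. In class III the fullest window was 31700001 to 31800000, with 15 regions, and it stood in a run of 3 windows from 31600001 to 31900000 that each held 6 regions called in all 6 libraries. The window with the most regions called in all 6 libraries was at 33200001 to 33300000 in class II, with 7 of its 9 regions.

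Class II fell into an almost empty part and a filled part. The 0.5 Mb from 32200001 to 32700000 held 3 regions, none called in more than 1 library, with between 0 and 2 peaks per library. The longest stretch between neighbouring MHC regions, 218504 bp from 32164729 to 32383232, crossed the border of class III and class II. The longest between neighbouring class II regions followed it, 194344 bp from 32383495 to 32577838. No region was called in all 6 libraries from 32164729 to 32805552, a stretch of 640824 bp. Those 3 regions were weak calls, at percentiles of −log10 q within their own lists of 7.42 in insulin replicate 1 and 0.533 and 3.83 in untreated replicate 3. The 0.3 Mb from 33100001 to 33400000, in contrast, held 124 of the 190 class II peaks and 12 of its 17 regions called in all 6 libraries. Between them, the 0.4 Mb from 32700001 to 33100000 held 16 regions, 5 of them called in all 6 libraries. These 3 blocks were drawn after their values were seen.

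Class I also had a thin stretch. No region was called in all 6 libraries between 30882441 and 31125797, a stretch of 243357 bp, and the 2 windows from 30900001 to 31100000 held between 0 and 3 peaks per library. Before it, the 0.8 Mb from 30000001 to 30800000 held 294 of the 453 class I peaks and 31 of its 45 regions called in all 6 libraries. These stretches, too, were drawn after their values were seen. Between class III regions called in all 6 libraries the longest stretch was 154719 bp, from 31940654 to 32095372. It contained the longest stretch between neighbouring class III regions of any kind, 43391 bp from 31972592 to 32015982. In the whole MHC, 3 windows of 100 kb held no region, and all 3 were in class II. Windows with no region called in all 6 libraries were 1 of 8 in class III, 3 of 18 in class I and 7 of 12 in class II. Whether reads could be placed uniquely in the thin stretches was not tested.

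**Figure D2:**
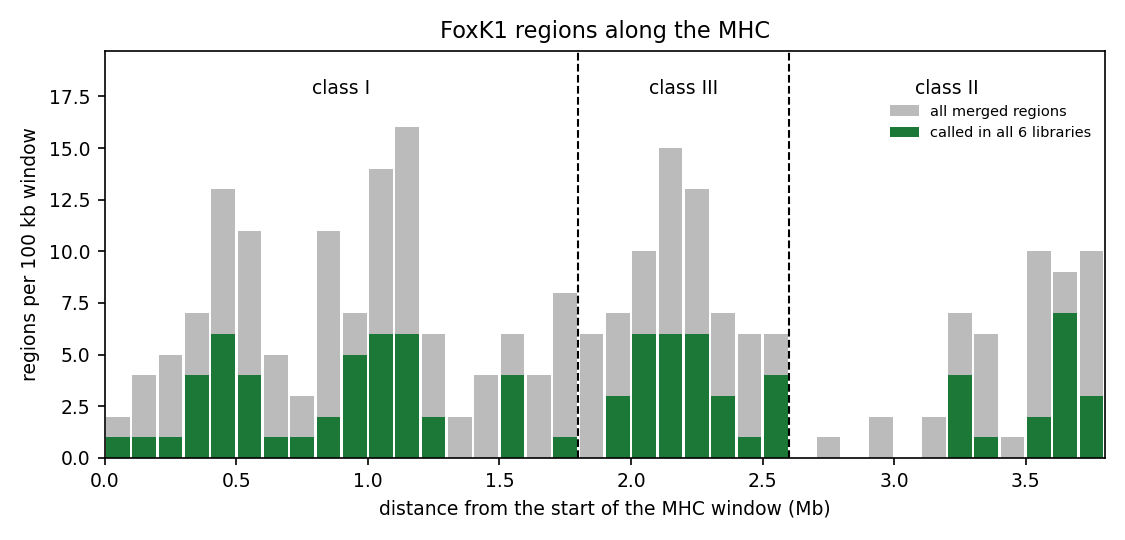
Merged regions per 100 kb window (y axis) along the MHC (x axis, distance in Mb from the start of the MHC), with all regions in grey and those called in all 6 libraries in green in front. Dashed lines mark the class borders; green bars reach 7 in class II near its far end and are absent over most of its first part.

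On the scale of 1 Mb, the windows at 30000001 to 31000000 and 31000001 to 32000000 held 33 and 29 regions called in all 6 libraries. The median window of the genome with any such region held 5 and the highest 39. As many as 33 were found in 11 of 2199 windows, and as many as 29 in 26. The next window, 32000001 to 33000000, held 10, and as many were found in 608 of 2199 windows. The windows at 29000001 to 30000000 and 33000001 to 34000000, which reach beyond the MHC, held 7 and 21. As many as these were found in 931 and 103 windows.

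With regions built from overlaps of at least 1 bp, a larger share was called in all 6 libraries in the MHC than elsewhere. Of 246 MHC regions, 91 (37.0%) were called in all 6 libraries, where the share over all regions of the genome was 23.3%. The share was 41.4% in class III (29 of 70, 95% Wilson interval 30.6 to 53.1), 35.2% in class I (45 of 128, 27.4 to 43.8) and 35.4% in class II (17 of 48, 23.4 to 49.6). These intervals overlap and cover counting error only. No test was made over regions, which are not replicates. On the rest of chromosome 6 the share was 22.4%.

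At the other end, 74 MHC regions (30.1%) were called in a single library, where the share over the genome was 34.3%. That share was 20.0% in class III (14 of 70), 31.3% in class I (40 of 128) and 41.7% in class II (20 of 48). Insulin replicate 2 alone accounted for 25 of the 74 (33.8%, where it had 20.3% of such regions over the genome). Insulin replicate 1 accounted for 18 (24.3%, against 27.8% over the genome) and untreated replicate 2 for 2 (2.70%, against 6.53% over the genome). These private peaks were weak in the MHC, with medians between the percentiles 8.45 and 13.7 by library, and weak over the genome, with medians between 7.81 and 14.3. Among combinations of several but not all libraries the most frequent was every library but untreated replicate 3, with 15 regions, 8 of them in class III.

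**Figure D3:**
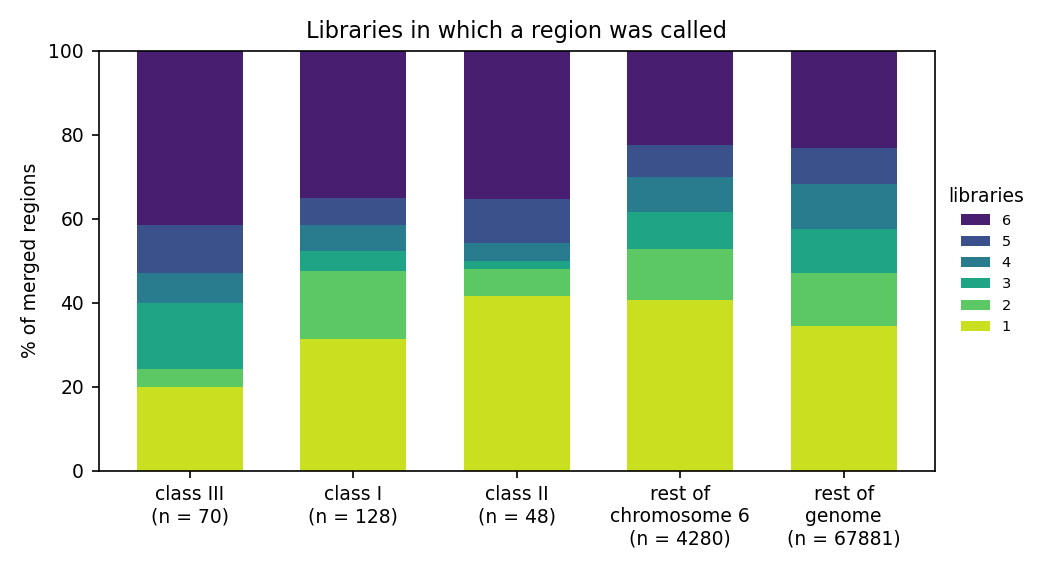
Share of merged regions (y axis, %) called in 1 to 6 libraries, for class III, class I, class II, the rest of chromosome 6 and the rest of the genome, with the number of regions under each bar. The dark top segment, regions called in all 6 libraries, is 41.4% in class III, 35.2% in class I, 35.4% in class II and 23.3% in the rest of the genome.

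Regions called by replicate 3 alone took a share of the MHC near that over the genome, and a larger one of the rest of chromosome 6. Only replicate 3 libraries called 19 MHC regions (7.72%), 6 in insulin replicate 3 and 13 in untreated replicate 3, with none in both. The share over all regions of the genome was 9.28%, and it was 19.1% on the rest of chromosome 6. Within the MHC it was 2.86% in class III (2 of 70), 7.81% in class I (10 of 128) and 14.6% in class II (7 of 48). All of these are counts with no test. Without untreated replicate 3 the 19 regions were 6, and without insulin replicate 3 they were 13.

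MHC peaks were strong within their lists by −log10 q, but by fold only in insulin replicates 1 and 3. The strength of a peak was taken as its percentile of −log10 q among all peaks of the same list, so that the middle peak of a whole list stands at 50. The median MHC peak stood at 63.0, 59.2 and 59.8 in insulin replicates 1, 2 and 3, and at 64.3, 56.8 and 60.9 in untreated replicates 1, 2 and 3. In every library this was above the rest of the genome, by 6.83 to 14.3 points. The median fold of MHC peaks was 6.199, 5.41 and 5.19 in insulin replicates 1, 2 and 3, against 5.95, 5.58 and 4.78 in the whole lists. It was 4.39, 3.84 and 4.07 in untreated replicates 1, 2 and 3, against 4.65, 4.18 and 4.21. It was thus below the whole list in insulin replicate 2 and in every untreated library. The part of the higher MHC background in these percentiles was not tested. Of the 1000 strongest peaks of each list, 16, 12 and 11 lay in the MHC in the insulin libraries and 13, 10 and 13 in the untreated libraries. The MHC held only between 0.376% and 0.484% of all peaks of a list.

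The order of the classes in strength was less firm than the order in density. The median class III peak stood at 70.8, 60.2 and 61.9 in insulin replicates 1, 2 and 3, and at 73.0, 56.4 and 82.6 in untreated replicates 1, 2 and 3. Class I stood at 60.4, 57.3 and 54.9 in the insulin libraries and at 61.1, 65.1 and 54.0 in the untreated libraries. Class II stood at 60.7, 57.4 and 61.8 in the insulin libraries and at 52.0, 50.6 and 58.1 in the untreated libraries. Class III was above class II in 6 of 6 libraries, by 10.7 ± 10.0 points (SD, n = 6), and this did not pass after adjustment over the 3 pairs (two-sided exact sign-flip permutation p = 0.0312, adjusted p = 0.0938). Class III was above class I in 5 of 6 libraries, by 8.70 ± 12.2 points (SD, n = 6; two-sided exact sign-flip permutation p = 0.125, adjusted p = 0.188). Class I and class II differed by 2.02 ± 8.17 points (SD, n = 6; two-sided exact sign-flip permutation p = 0.625, adjusted p = 0.625). Moving both class borders 0.1 Mb lower turned the first 2 differences to -2.47 and -2.73, and moving them 0.1 Mb higher gave 15.1 and 14.4. Leaving out peaks whose −log10 q was under 5 gave 24.8 and 13.7, both with an adjusted exact permutation p of 0.0469. Without untreated replicate 3 class III stood only 4.72 points above class I.

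**Figure D4:**
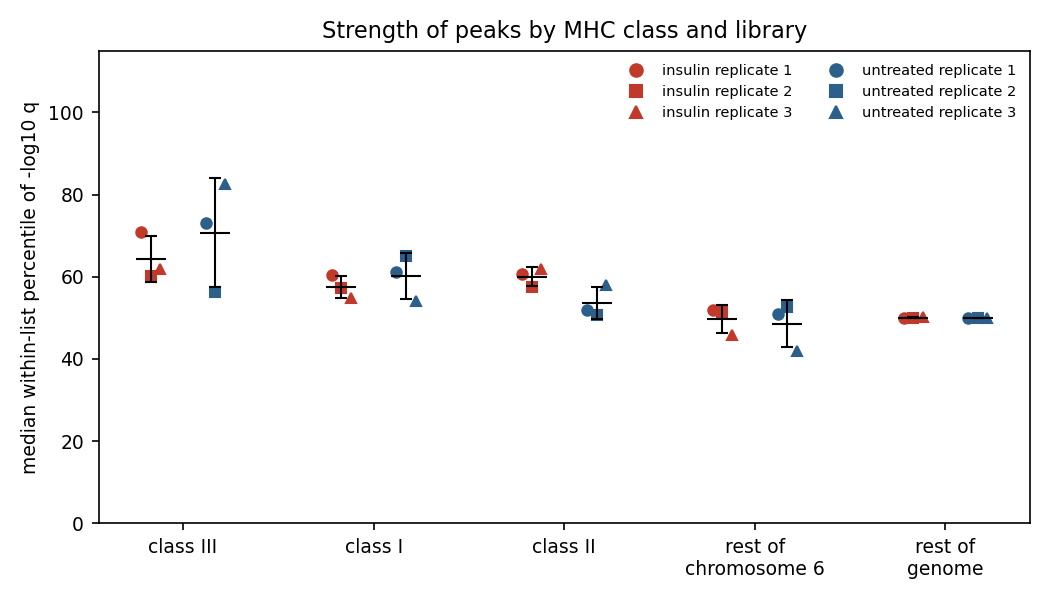
Median within-list percentile of −log10 q (y axis) of the peaks of each library in class III, class I, class II, the rest of chromosome 6 and the rest of the genome, with insulin libraries in red left of untreated libraries in blue. Bars are the mean ± SD of 3 libraries; all 18 class medians lie above 50, and those of class III spread from 56.4 to 82.6.

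Among the 91 regions called in all 6 libraries, the mean percentile over libraries had a median of 89.3 in class III, 76.2 in class I and 72.8 in class II. It was 73.0 over all such regions of the genome. A mean percentile above 90 was found for 13 of 29 regions in class III, 9 of 45 in class I and 6 of 17 in class II, which is 30.8% of the 91 and compares with 18.7% over the genome. Where a library had several peaks in a region, its strongest peak there was used. The median region called in all 6 libraries was 1284 bp wide in class III, 1081 bp in class I and 1407 bp in class II. The summits of the 6 libraries lay within 100 bp of each other in 49 of the 91 regions (53.8%), and in 53.3% of such regions over the genome.

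The strongest region of the MHC was in class II, on chromosome 6 at 33167240 to 33169489. It ranked 54, 48 and 12 in the lists of insulin replicates 1, 2 and 3, and 85, 75 and 53 in those of untreated replicates 1, 2 and 3. Its fold enrichment, a value of each list by itself that is the authors' own, was 60.5, 56.1 and 65.5 in the insulin lists, against 26.1, 22.8 and 26.7 in the untreated lists. Over whole lists the median fold was also higher after insulin, at 5.95, 5.58 and 4.78 against 4.65, 4.18 and 4.21. No fold given here or below was corrected for these medians. Background at the summit of this region was 7.35, 12.5 and 3.14 in the insulin lists, against 19.1, 13.8 and 6.08 in the untreated lists. The summit rested on 504, 757 and 270 fragments in the insulin lists, against 523, 338 and 188 in the untreated lists. All 6 libraries thus placed it among their 85 strongest peaks, and their summits lay within 26 bp.

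Class II had 3 other regions with a mean percentile above 98. At 33256620 to 33257771 the rank was 756, 273 and 297 in the insulin lists, against 385, 170 and 235 in the untreated lists. At 33238869 to 33240275 it was 255, 269 and 250 in the insulin lists, against 191, 193 and 674 in the untreated lists. At 33385460 to 33386473 ranks lay between 254 and 716. The other four of the 8 strongest were at 33358768 to 33360202, 33264808 to 33267807, 33290434 to 33291575 and 33216091 to 33217590. Their mean percentiles were 97.4, 94.3, 83.3 and 76.2. All 8 lay between 33100001 and 33400000.

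In class III the strongest region was at 31622738 to 31624021. Its percentile was 99.5, 99.3 and 98.9 in insulin replicates 1, 2 and 3, and 99.3, 98.5 and 98.8 in untreated replicates 1, 2 and 3. Folds were 35.7, 29.9 and 17.5 in the insulin lists, against 17.7, 10.4 and 14.1 in the untreated lists. The region at 31913131 to 31914075 followed, with percentiles between 98.4 and 99.3 and summits within 33 bp. At 31632271 to 31634271 they lay between 97.9 and 99.0. These 3 regions ranked between 263 and 665 in every list. The remaining 5 were at 32144813 to 32146625, 31939594 to 31940653, 31894859 to 31895620, 32095373 to 32096462 and 31926273 to 31927397, with mean percentiles of 97.9, 96.4, 96.1, 95.9 and 95.3. The weakest of the 8 in class III was thus stronger by this measure than the sixth in class II.

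In class I the strongest region was at 30538243 to 30539678. Its percentile was 99.2, 98.6 and 98.8 in insulin replicates 1, 2 and 3, and 99.0, 97.4 and 98.1 in untreated replicates 1, 2 and 3. Folds were 25.7, 20.0 and 16.9 in the insulin lists, against 13.1, 8.43 and 11.8 in the untreated lists. Next came 30622802 to 30623634 and 30483625 to 30484652, each with a mean percentile of 97.0. The other 5 were at 30034441 to 30035349, 30584431 to 30586582, 30068076 to 30068971, 30495533 to 30496323 and 30523646 to 30525593, with mean percentiles between 94.5 and 96.3. All 8 lay between 30000001 and 30800000.

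The widest region of the MHC was in class II at 32934902 to 32941872 and spanned 6971 bp. It held 7, 2 and 3 peaks of insulin replicates 1, 2 and 3, and 4, 3 and 5 peaks of untreated replicates 1, 2 and 3. Its percentile was moderate, at 66.3, 76.7 and 71.3 in the insulin lists, against 53.1, 52.0 and 76.9 in the untreated lists. In class III the widest spanned 4488 bp, at 31703584 to 31708071, with percentiles between 92.8 and 98.3. In class I the widest spanned 2391 bp, at 30027803 to 30030193. Regions called in all 6 libraries were not all strong: the weakest in the MHC, at 29720160 to 29721229 in class I, had percentiles between 9.08 and 32.4.

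The insulin and untreated groups bear on whether insulin changes where FoxK1 is found. In the MHC, insulin replicates 1, 2 and 3 had 187, 191 and 133 peaks, against 168, 140 and 124 in untreated replicates 1, 2 and 3. The means were 170 ± 32.4 after insulin and 144 ± 22.3 without it (SD, n = 3 each), a difference of 26.3 peaks between groups that overlapped (two-sided exact permutation p = 0.3; 3 against 3 cannot go below 0.1). Without insulin replicate 3 the difference was 45, and without insulin replicate 2 it was 16. Leaving out untreated replicate 3 gave 16.3. With every list shortened to the 26082 peaks of the shortest it was 6.

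Set against the length of its own list, the MHC took a close share of peaks in both groups. It held 0.388%, 0.424% and 0.484% of the peaks of insulin replicates 1, 2 and 3, and 0.376%, 0.442% and 0.475% of those of untreated replicates 1, 2 and 3. The difference was 0.000645 percentage points (0.432 ± 0.0483 after insulin and 0.431 ± 0.0506 without it, SD, n = 3 each; two-sided exact permutation p = 1). By class, insulin libraries gave 0.137% ± 0.0166 in class III, 0.210% ± 0.0237 in class I and 0.0849% ± 0.0115 in class II (SD, n = 3 each). Untreated libraries gave 0.136% ± 0.0229, 0.204% ± 0.0263 and 0.0908% ± 0.0182 for the same classes (SD, n = 3 each). The groups overlapped in every class.

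The groups also overlapped in the median percentile of every class. Insulin minus untreated was -6.34 points in class III, -2.58 in class I and 6.40 in class II (n = 3 each). Over these 3 values and the 3 shares, two-sided exact permutation p lay between 0.2 and 0.9, and the adjusted p was 0.84 for 5 values and 0.9 for the sixth. Pairs of lists of different treatment overlapped in the MHC with a mean Jaccard index of 0.559 over 9 pairs, and pairs of the same treatment with 0.542 over 6 pairs. The index is the base pairs shared by both lists over those covered by either.

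Regions called on one side only were rare. A single MHC region of 246 was called in 3 of 3 insulin libraries and no untreated one, where 0.376% of all regions of the genome met this rule. It lay in class I at 31345771 to 31346476 and was weak, with percentiles of 8.81, 2.25 and 4.78 in insulin replicates 1, 2 and 3, folds of 3.31, 2.38 and 3.01 and summits of 15, 20 and 10 fragments. None of the 246 was called in 3 of 3 untreated libraries and no insulin one, where the share over the genome was 0.0352%. A single region cannot go below an exact permutation p of 0.1. Leaving out a library loosens the rule: without insulin replicate 3 there were 8 insulin-only regions, and without untreated replicate 1 there were 3. The share over the genome under the loosened rule is not given here, so these counts cannot be set against the 0.376%.

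Of the 91 MHC regions called in all 6 libraries, 7 (7.69%) had every insulin percentile above every untreated one, close to the 8.65% found over the genome. None had every insulin percentile below every untreated one, where the share over the genome was 0.850%. The median difference of mean percentiles, insulin minus untreated, was 3.32 points in the MHC and 2.94 over all such regions of the genome. It was 2.01 in class III, 4.71 in class I and 0.99 in class II. The mean was higher after insulin in 71 of 91 MHC regions (78.0%) and in 70.9% of regions over the genome. A percentile depends on the length of its list, and insulin lists were longer, with a mean of 40256 peaks against 34146. The part of list length in these differences was not tested. With every list shortened to 26082 peaks, 5 MHC regions had every insulin percentile above every untreated one, and 3 had every one below. Adjusted over the genome's 15887 regions called in all 6 libraries, no region had an exact permutation p below 1. With insulin replicate 3 left out the 7 became 28, with untreated replicate 1 left out 20, and with untreated replicate 3 left out 19. The count of none became 6 where untreated replicate 3 was left out. Fewer libraries loosen both rules. Matching shares over the genome are not given here, so these counts cannot be set against the 8.65% and 0.850%.

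In class III, 2 regions were among the 7. At 31697083 to 31698076 the percentile was 59.8, 60.2 and 61.9 in insulin replicates 1, 2 and 3, and 18.7, 21.5 and 37.4 in untreated replicates 1, 2 and 3. The difference of means was 34.8 points, the highest of the 91. Fold there was 5.10, 5.41 and 5.46 in the insulin lists, against 2.43, 2.46 and 3.39 in the untreated lists. At 31832932 to 31833755 the percentile was 91.5, 90.2 and 84.7 in the insulin lists, against 78.2, 44.7 and 51.1 in the untreated lists, a difference of 30.8 points. Neither region's groups overlapped, and the untreated values spread more widely at the second.

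The 3 class I regions with the largest such differences were at 30027803 to 30030193, 29893983 to 29895314 and 31370973 to 31371731. At the first the percentile was 90.4, 84.9 and 91.1 in the insulin lists, against 83.8, 64.4 and 42.5 in the untreated lists, a difference of 25.2 points, with the lowest insulin value just above the highest untreated one. The others differed by 21.8 and 21.3 points, with percentiles between 15.7 and 59.8. In class II the only such region was the strongest of the MHC, at 33167240 to 33169489, with a difference of 0.12 points. Its ranks overlapped between the groups, 54, 48 and 12 after insulin against 85, 75 and 53 without it.

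**Figure D5:**
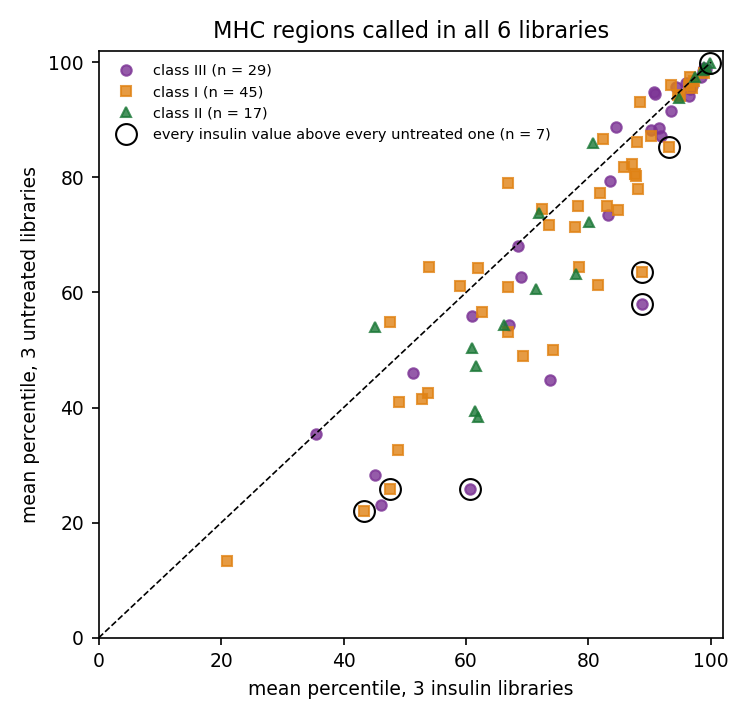
Mean within-list percentile of −log10 q over the 3 insulin libraries (x axis) and the 3 untreated libraries (y axis) for the 91 MHC regions called in all 6 libraries, by class. The dashed line marks equal values, and 71 regions lie to its right; circles mark the 7 regions where every insulin value is above every untreated one.

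The summits nearest to the limits of the MHC were these. The first summit inside was at 29617904, with a percentile of 68.9 in untreated replicate 2 and in a region of all 6 libraries, and the last outside was at 29529102, at 29.4 in untreated replicate 1. At the far end the last summit inside was at 33398904, at 61.3 in insulin replicate 1 and in that library alone. The first beyond was at 33422309, at 73.6 in untreated replicate 3 and in a region of all 6 libraries.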

How the data were processed

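The submitters' processing notes name MACS2, Bowtie2, fastp and SAMtools and the build hg19; neither versions nor roles were given in the sources used here. The authors called peaks on each library by itself, per the peak names in the deposited lists. The deposited fold is a linear ratio of the summit over the estimated background. The deposited −log10 p started at 3.00, and it and the −log10 q depend on depth. For 100% of peaks, 10 times the −log10 p matched the deposited score within 1. How reads that match several places were treated was not stated, and no peak was named on an alternate chromosome 6 haplotype (0 peaks), while random or unplaced contigs held 373.

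Regions are peaks of any list sharing at least 1 bp. Percentiles are ranks of −log10 q within a list. Genome length was the sum of the last peak ends on chromosomes 1 to 22 and X, 3034 Mb, gaps included. Summit fragments were the whole number that gave the deposited fold, as (fragments + 1) over (background + 1), and the −log10 p as a Poisson upper tail within 0.0005 (in proportion above 10), found for 943 of 943 MHC peaks. Groups and replicate numbers came from sample titles. Regions named are, per class, the 8 strongest called in all 6 libraries, up to 3 in each direction whose treatments do not overlap, the widest region, the longest gap and the fullest windows, and all one-sided regions; the weakest region was added after its values were seen. Members and rules were chosen with earlier results of these data known. Planned counts of gene starts and forkhead motifs need an hg19 annotation or genome and were not computed. The steps were tested on simulated data. Python 3.11.15, numpy 2.4.6, pandas 2.3.3, scipy 1.17.1 and matplotlib 3.10.9 were used.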

Additional observations from a re-analysis of the deposited data

How the results depend on the processing

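The densities kept their direction in every alternative run. With 1 library left out the log2 ratio was 1.75 to 1.83 against the rest of the genome, 1.61 to 1.68 against the rest of chromosome 6, 0.50 to 0.61 for class III over I, 1.17 to 1.31 for III over II and 0.63 to 0.69 for I over II; without replicate 3 in both treatments these were 1.71, 1.69, 0.64, 1.34 and 0.70. No p could then fall below 0.0625 and 0.125, since 5 and 4 libraries allow no less. Percentile differences of III minus I and III minus II were 4.72 to 12.2 and 7.95 to 12.8 with 1 library left out. Those of I minus II were -0.48 to 3.81 in the same runs. With −log10 q of at least 5 the first 2 were 13.7 and 24.8. They were -2.73 and -2.47 with borders 0.1 Mb lower, and 14.4 and 15.1 with borders 0.1 Mb higher. The cause was not tested.

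Insulin minus untreated had no firm sign for shares. Leaving out each library gave 16 to 45 MHC peaks, -0.0270 to 0.0228 percentage points for the MHC, -0.00851 to 0.0138 for class III, -0.00798 to 0.0201 for class I and -0.0133 to 0.00422 for class II; without replicate 3 the MHC gave -0.00311 and class III -0.00746, and with lists of equal length (26082 peaks) class II gave 0. Median percentiles gave -13.5 to -0.36 in class III, -5.61 to -0.045 in class I and 4.93 to 8.66 in class II; with equal lengths class I gave 0.86 and class II -0.74, by fold class III gave 1.21 and class I 4.41, and without replicate 3 class III gave 0.83.

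Regions in every library numbered 29 to 37, 45 to 49 and 16 to 20 in classes III, I and II with 1 library left out, 13, 24 and 9 where a library had to cover 50% of a region, and 11 in class II with regions built from summits within 100 bp. Insulin-only regions numbered 1 to 8, and 2 with −log10 q of at least 5, 0 from summits and 8 without replicate 3; untreated-only ones numbered 0 to 1. Shared regions with all insulin percentiles higher numbered 9 to 28 with 1 library left out, 43 without replicate 3 and 5 with equal lengths. Those with all lower numbered 0 to 6, 7 and 3 in the same settings. Fewer libraries loosen these rules. Regions of replicate 3 alone numbered 6 to 23, and 4, 29 and 50 with −log10 q of at least 5, equal lengths and summits. For none of the counts in this paragraph is the matching share over the genome given here.

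Replicate numbers were not taken to pair libraries in the main tests. Deviations of same-numbered libraries correlated at 0.101, 0.0606 and 0.266, and those of different-numbered libraries at -0.210 to 0.122. Whether a replicate number marks a shared batch was not tested. With the replicate block the difference stayed 26.3 peaks (two-sided exact sign-flip permutation p = 0.25, the smallest for 3 pairs) and 0.000645 percentage points (p = 1), and no call changed.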
